A study of Mus musculus with 4 samples.

Results

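The regions described here are those of axon guidance genes in a profile of H3K9me3, a histone mark of silent chromatin, in embryonic mouse microglia, the resident macrophages of the brain. A region was included when the gene with the nearest transcription start, or the gene whose exon or intron held the region, was Dcc or Gap43 or had a symbol of the netrin, Unc5, slit, robo, semaphorin, plexin, neuropilin, ephrin or Eph families. By this rule 30 of the 5432 regions in the authors' 2 lists were included, and they belonged to 20 of the 74 protein-coding genes with such symbols in RefSeq. This count, also by family, was not made over all genes. Counting regions inside a gene alone, 17 of the 74 (23.0%) held a region, beside 6.06% of all 21900 protein-coding genes. The 74 had a median length of 57.1 kb, beside 17.1 kb for all. Among genes over 100 kb the shares holding a region were 42.4% and 31.8%. Microglia were sorted from the telencephalon of C57BL/6 embryos, at embryonic day 14 by the sample labels, or a little later by the protocol text. KO embryos (Arid1acKO-Cx3cr1) were to lose Arid1a, which encodes the DNA-binding part of a chromatin remodeller of the SWI/SNF type, in cells expressing Cre under Cx3cr1, a gene active in microglia and other macrophages. Control embryos (Arid1afl/fl) carried the floxed gene, and the labels do not say whether they carried Cre. Each genotype had 1 CUT&Tag library of H3K9me3 and 1 of control IgG, each from 100000 cells. In CUT&Tag an antibody brings a transposase to nucleosomes that carry the mark, where it inserts sequencing adapters.

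The authors' lists give regions with more H3K9me3 in KO than in control (the higher list) or less (the lower list), and hold no value per library, no fold change and no p-value. The depth is therefore unknown, a difference has no replicate check, and no test between genotypes was possible. Each row carries a peak score of the authors, whose scale is not stated. It is used to describe and rank regions within a list, and to choose which other guidance genes to name. It is not the size of a change. Intervals in brackets are exact 95% intervals, binomial for shares and taken from the ranked values for medians. For shares they cover counting error only, and for medians only the spread of the listed regions. Coordinates are read as GRCm38, since the transcripts in the same rows matched genes of that assembly. The submitters' processing notes name mm9, so the build of the regions themselves is uncertain. The genes assigned to regions, their annotation classes, intron numbers and distances to genes are uncertain for the same reason. The lists hold no measure of RNA, so they show neither whether a gene was expressed nor whether the sorted cells were microglia. Among 16 genes that mark microglia, Csf1r had a region in the higher list, which held 64.2% of all regions. Most of the 16 had no region in either list, so the Csf1r region does not speak for these genes as a set. Of 14 genes that mark neurons and neural progenitors, 5 had higher regions and 2 had lower ones. Their 8 regions were 62.5% (24.5 to 91.5) higher, beside 64.2% of all 5432 regions.

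Axon guidance genes encode cues that steer growing axons, and the receptors on the growth cone that read them. Netrins attract or repel axons through Dcc and Unc5 receptors, slits repel them through robo receptors, semaphorins act through plexins and neuropilins, and ephrins act on contact through Eph receptor kinases. Several of these receptors, among them some plexins and neuropilins, also act in myeloid cells.

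Axon guidance genes had regions in both lists, at a share close to that of all regions. The higher list held 18 of the 30 regions, or 60.0% (40.6 to 77.3), beside 64.2% of all 5432 regions. The interval includes the share of all regions. Of the 20 genes, 9 had regions in the higher list alone, 7 in the lower list alone, and 4 (Dcc, Robo1, Efna5 and Gap43) in both. The same split was not counted over all genes, and a gene with a single region cannot be in both lists. The best-ranked region in the higher list belonged to Sema6a, followed by Slit3 and Epha6. In the lower list Epha7 came first, followed by Robo1 and Dcc. Of the 12 regions of ligand genes, 9 (75.0%, 42.8 to 94.5) were in the higher list, and of the 16 of receptor genes 8 (50.0%, 24.7 to 75.3). The 2 intervals overlap, and the difference was not tested.

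**Figure D1:**
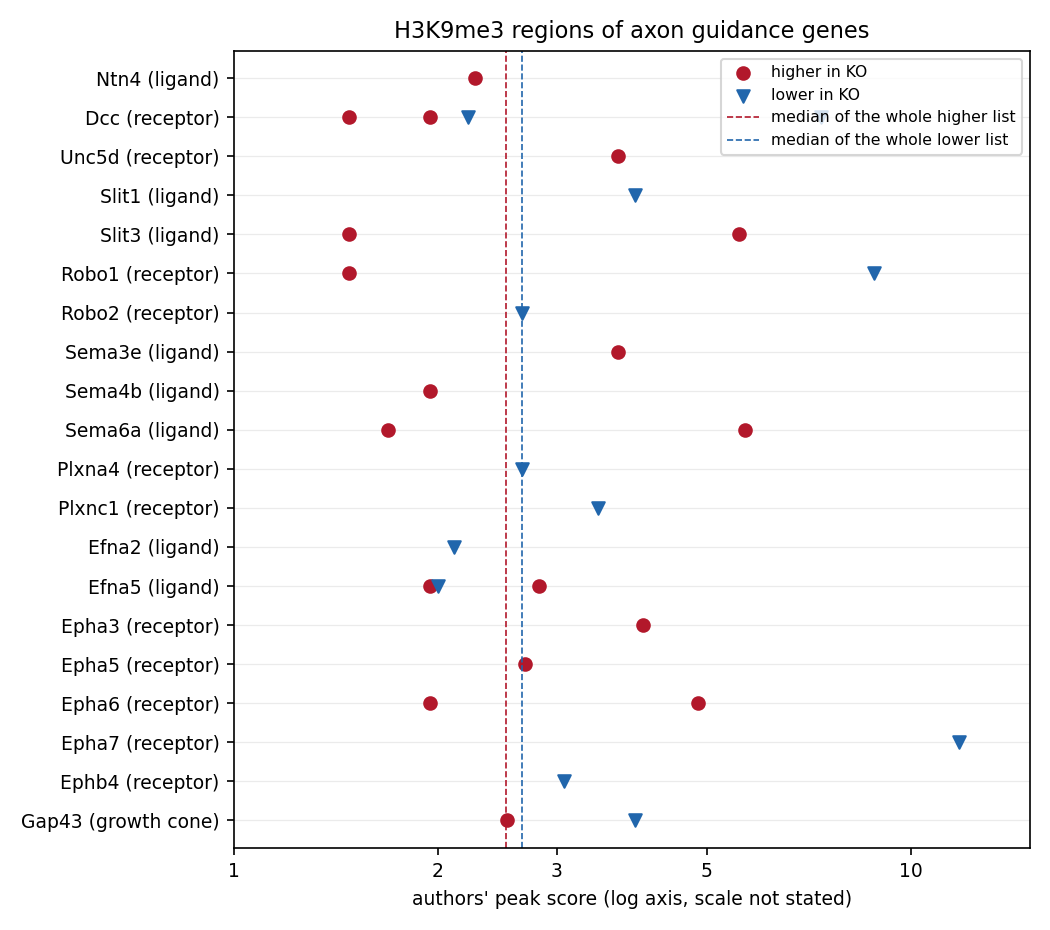
Authors' peak score (log axis) of each region of the 20 axon guidance genes, with circles for regions higher in KO, triangles for regions lower in KO, and dashed lines at the median score of each whole list. Within the lower list the Epha7 region (11.8) and the Robo1 region (8.82) lie farthest above its median, and within the higher list the Sema6a exon region (5.70) does. The lists may not share a scale.

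In the netrin family, 3 of 11 genes had regions, 4 higher and 2 lower. The share higher was 66.7% (22.3 to 95.7), beside 64.2% of all regions. Dcc, the netrin receptor, had 4 regions, more than the other axon guidance genes, and all lay in its introns. It is also among the longest of these genes, at 1098 kb. The 2 higher regions were chr18:71669690-71670043 in intron 7, with a score of 1.48, and chr18:71807676-71808292 in intron 5, with a score of 1.95. Both scored below the median of the higher list, 2.52. The 2 lower regions were chr18:71967954-71968350 in intron 1, with a score of 7.36 and rank 52 of 1944, and chr18:71265792-71266111 in intron 27, with a score of 2.22. Along the gene the order was lower, higher, higher and lower, with 160 kb, 138 kb and 404 kb between neighbours. The start nearest to the intron 27 region was that of Mbd2, which encodes a reader of DNA methylation, 697458 bp away. Unc5d, a repulsive netrin receptor, had a higher region in intron 1 (chr8:28922996-28923572, score 3.69). Ntn4, a netrin of basement membranes, had a higher region in intron 5 (chr10:93713679-93713975, score 2.27). The other netrin, netrin-G and Unc5 genes had none in either list.

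The slit family had 3 higher and 3 lower regions in 4 of its 7 genes, or 50.0% (11.8 to 88.2) higher, beside 64.2% of all regions. Slit3, a secreted repellent, had 2 higher regions. One lay in intron 4 (chr11:35316964-35317619, score 1.48) and the other in intron 12 (chr11:35599697-35600182, score 5.57, rank 226 of 3488). The intron 12 region lay 16634 bp before the start of the hairpin of Mir218-2, which was its nearest start and lies inside Slit3. The hairpin of Mir218-1 lies inside Slit2, which had no listed region.

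Both hairpins give the same 5p strand, and miR-218 is known from human cancer cells to act on ROBO1, a slit receptor. The mature sequences are shown because this microRNA joins the slit and robo genes. They are from RefSeq (GRCm38.p6), with the seed, bases 2 to 8, in capitals.
mmu-miR-218-5p: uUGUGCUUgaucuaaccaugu
mmu-miR-218-2-3p: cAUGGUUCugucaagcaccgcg

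Slit1, which guides axons in the forebrain, had 1 lower region in intron 4 (chr19:41675954-41676338, score 3.92). Robo1, a slit receptor, had a region in each list, 44.9 kb apart near the 3′ end of the gene. The higher region lay in intron 26 (chr16:73031418-73031824) and had a score of 1.48. The lower region lay in intron 16 (chr16:72986528-72986980) and had a score of 8.82, rank 31 of 1944. Robo2, another slit receptor, had a lower region (chr16:74449039-74449572, score 2.66), which the authors' annotation places between genes, 37747 bp before the start of the transcript it gives. The RefSeq Robo2 gene begins farther upstream and contains this region. Slit2, Robo3 and Robo4 had no region. Both Robo1 and Robo2 lie on chromosome 16.

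The semaphorin family had 4 higher and 2 lower regions, or 66.7% (22.3 to 95.7) higher, beside 64.2% of all regions. Of 20 semaphorin genes, 3 had 4 higher and 0 lower regions. Of 9 plexin genes, 2 had 0 higher and 2 lower regions, where 35.8% of all regions were lower. The difference between ligands and receptors was not tested. Sema6a, a transmembrane semaphorin, had a higher region in exon 18 of 19 (chr18:47270539-47270952), with a score of 5.70 and rank 210 of 3488. It was the exonic region among the 30. A further higher region lay 242854 bp before a Sema6a start, between genes (chr18:47611722-47612193, score 1.69). Sema3e, a secreted semaphorin that binds Plxnd1, had a higher region in intron 1 (chr5:14055149-14055532, score 3.69). Sema4b, a transmembrane semaphorin, had one in intron 2 (chr7:80204878-80205600, score 1.95).

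Plxna4, a receptor with which neuropilins form complexes for class 3 semaphorins, had a lower region in intron 10 (chr6:32216874-32217593, score 2.66). Its nearest start was that of Plxna4os3, whose symbol marks it as a transcript of the opposite strand. Plxnc1, the receptor of Sema7a, had a lower region in the promoter class (chr10:94946251-94946637, score 3.45, rank 504 of 1944), 1416 bp before its start. The neuropilins Nrp1 and Nrp2, Sema7a, Plxnd1 and the other semaphorins and plexins had no region in either list.

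The Plxnc1 promoter is shown because its region was 1 of 2 in the promoter class among axon guidance genes. The window from RefSeq (GRCm38.p6) is chr10:94944796-94945095 on the minus strand, from 250 bases before the start to 50 after, and the region lay 1156 bp beyond its upstream end. Matches on either strand to the GC box GGGCGG and to GAGGAA, a core bound by the myeloid factor PU.1, are in capitals and do not overlap.
Plxnc1 promoter: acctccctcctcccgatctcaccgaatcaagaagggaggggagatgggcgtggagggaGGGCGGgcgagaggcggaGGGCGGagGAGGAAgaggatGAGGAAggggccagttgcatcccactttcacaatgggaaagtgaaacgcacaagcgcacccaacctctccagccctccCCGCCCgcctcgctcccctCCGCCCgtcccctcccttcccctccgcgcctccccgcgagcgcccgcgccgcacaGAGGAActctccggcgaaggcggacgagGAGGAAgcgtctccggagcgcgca

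The window held 4 GC boxes, 4 GAGGAA matches, no TATAAA and no CCAAT, and 69.0% of its bases were G or C. Over 32817 such windows of all genes, 35.6% held a GC box, 28.3% GAGGAA, 13.6% TATAAA and 37.4% CCAAT, and the median share of G and C was 52.7%. Of 18 windows of 14 axon guidance genes with regions, 13 held a GC box, 9 GAGGAA, 0 TATAAA and 4 CCAAT. These are letter matches in windows that no axon guidance region overlaps.

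The ephrin family had the most regions, 6 higher and 4 lower in 7 of its 22 genes. The share higher was 60.0% (26.2 to 87.8), beside 64.2% of all regions. Among A-class Eph receptors, Epha3, Epha5 and Epha6 had higher regions alone. Epha6 had 2, in intron 13 (chr16:59807344-59807726, score 4.85) and intron 3 (chr16:60348812-60349127, score 1.95). The Epha3 region lay in intron 15 (chr16:63561754-63562472, score 4.02) and the Epha5 region in intron 5 (chr5:84147682-84148262, score 2.69). Epha7, a receptor of A-class ephrins that shapes forebrain axon maps, had a lower region in intron 14 (chr4:28954301-28954604). Its score of 11.8 ranked 6 of 1944 in the lower list. Ephb4, which with the ligand Efnb2 separates arteries from veins, had a lower region in intron 3 (chr5:137354637-137355111, score 3.07).

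Of the ephrin ligands, Efna5, a membrane-anchored repellent of cortical axons, had 2 higher regions before its start and 1 lower region within it. The higher regions lay between genes, 87118 bp (chr17:62968435-62969008, score 2.82) and 100242 bp (chr17:62981559-62981957, score 1.95) upstream. The lower region lay in intron 1 (chr17:62794138-62794522, score 2.00). Efna2 had a lower region in its first intron (chr10:80184436-80184858, score 2.11). No B-class ephrin gene had a region.

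Gap43, a growth cone protein made by neurons that extend axons, had a region in each list, both before its start. The higher region lay between genes, 42066 bp upstream (chr16:42382717-42383235, score 2.53). The lower region was in the promoter class, 2190 bp upstream (chr16:42342841-42343413, score 3.91, rank 392 of 1944). The promoter regions of Gap43 and Plxnc1 were both in the lower list, beside 36.2% of the 688 promoter regions of all genes. This count rests on 2 regions.

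**Figure D2:**
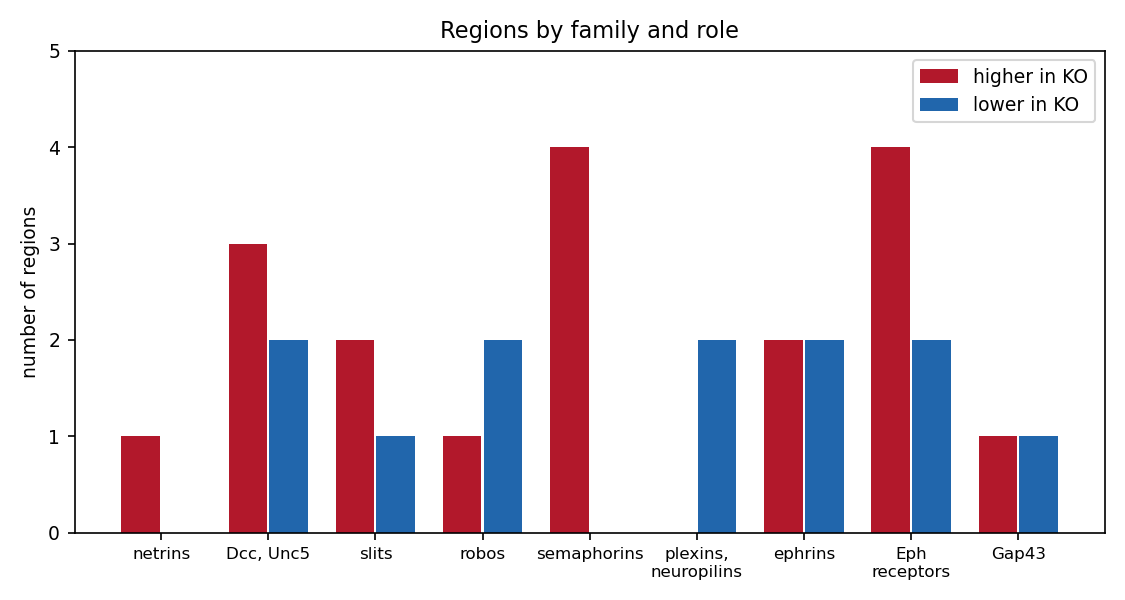
Number of regions by family and role, with bars on the left for regions higher in KO and on the right for regions lower in KO. The 4 semaphorin regions were in the higher and the 2 plexin regions in the lower list, and no other group had more than 4 regions in a list.

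In the genes with regions in both lists, the regions of opposite direction lay 39.8 kb apart at Gap43, 44.9 kb at Robo1 and 174 kb at Efna5. The nearest such distance at Dcc was 160 kb. Their scores are not set against each other, since the 2 lists may not share a scale.

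**Figure D3:**
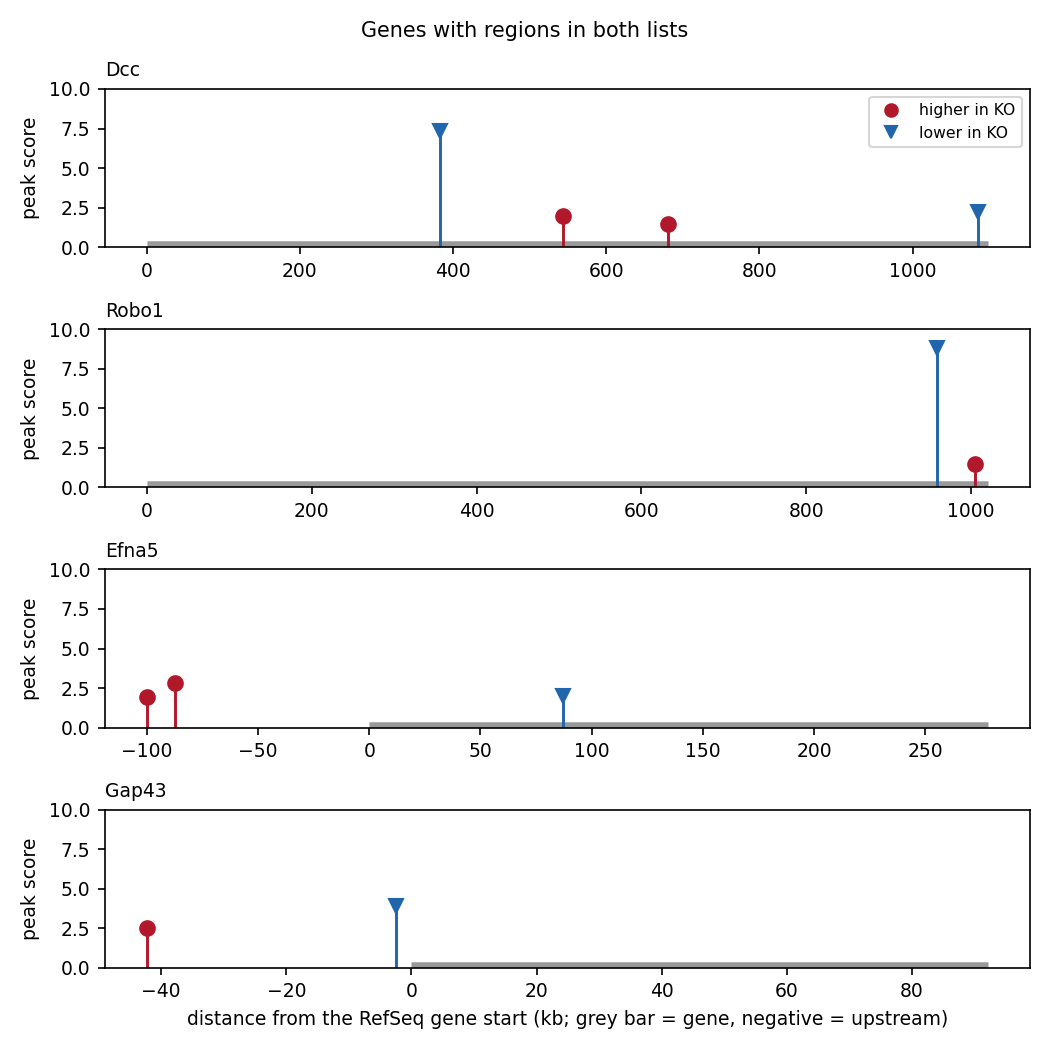
Authors' peak score of each region of Dcc, Robo1, Efna5 and Gap43 against its distance from the RefSeq gene start in kb, with the gene as a grey bar, circles for regions higher in KO and triangles for regions lower in KO. At Dcc 2 lower regions flank 2 higher ones inside the gene. At Efna5 and Gap43 the higher regions lie upstream of the gene, as does the lower region of Gap43.

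Most of the 30 regions lay in introns. Introns held 22 regions, or 73.3% (54.1 to 87.7), beside 35.8% of all regions. Distal intergenic sequence held 5, or 16.7% (5.64 to 34.7), beside 47.4%. Promoters held 2, or 6.67% (0.818 to 22.1), beside 12.7%. The rule itself raises the intron share, since it takes in each region held by an axon guidance gene. Over the 16 regions whose nearest start has such a symbol, 8 (50.0%) were in introns. Without the region nearest to Plxna4os3, which matches the rule by its letters, 7 of 15 (46.7%) were. The intron share was alike in the higher list, 13 of 18, and the lower list, 9 of 12. Of the 23 regions inside an axon guidance gene, 14 were higher, or 60.9% (38.5 to 80.3), beside 63.9% of the 2062 regions inside any gene. The start of another gene was nearer for 15 of the 23 (65.2%), beside 57.0% over all genes.

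**Figure D4:**
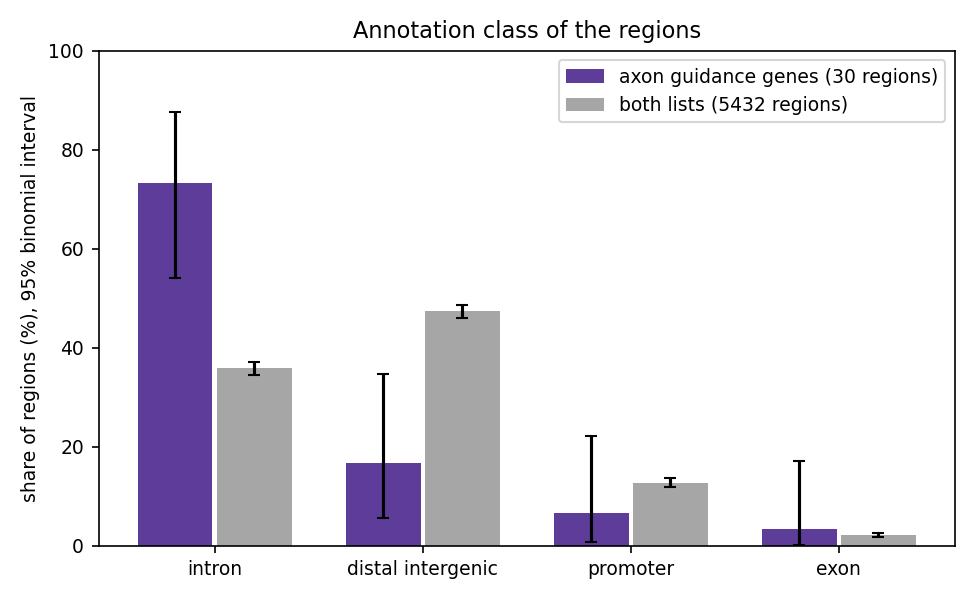
Share of regions in 4 annotation classes, with axon guidance genes on the left and both whole lists on the right of each pair and exact 95% binomial intervals as error bars. Introns held 73.3% of the axon guidance regions and 35.8% of all regions, a difference that the rule for choosing regions enlarges.

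The genes that held regions were long. The 18 axon guidance genes whose RefSeq span contains a region, Robo2 included, had a median length of 300 kb, and the 56 others a median of 28.6 kb. Per length, by the authors' annotation, axon guidance genes held 1.67 regions per Mb over 13.8 Mb, beside 1.61 per Mb for all 21900 protein-coding genes. Among genes over 100 kb the values were 1.57 and 1.81 per Mb. Among genes up to 100 kb they were 2.78 per Mb, from 3 regions, and 1.33 per Mb. Of the 22 regions inside the RefSeq span of an axon guidance gene of known strand, 10 lay before and 12 after the midpoint of the gene. Beyond 80 percent of the gene length lay 7 regions, 4 higher and 3 lower, in Slit3, Epha6, Epha3, Robo1, Epha7 and Dcc. Positions were not counted over regions inside all genes, so these counts do not show a preference for either end.

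**Figure D5:**
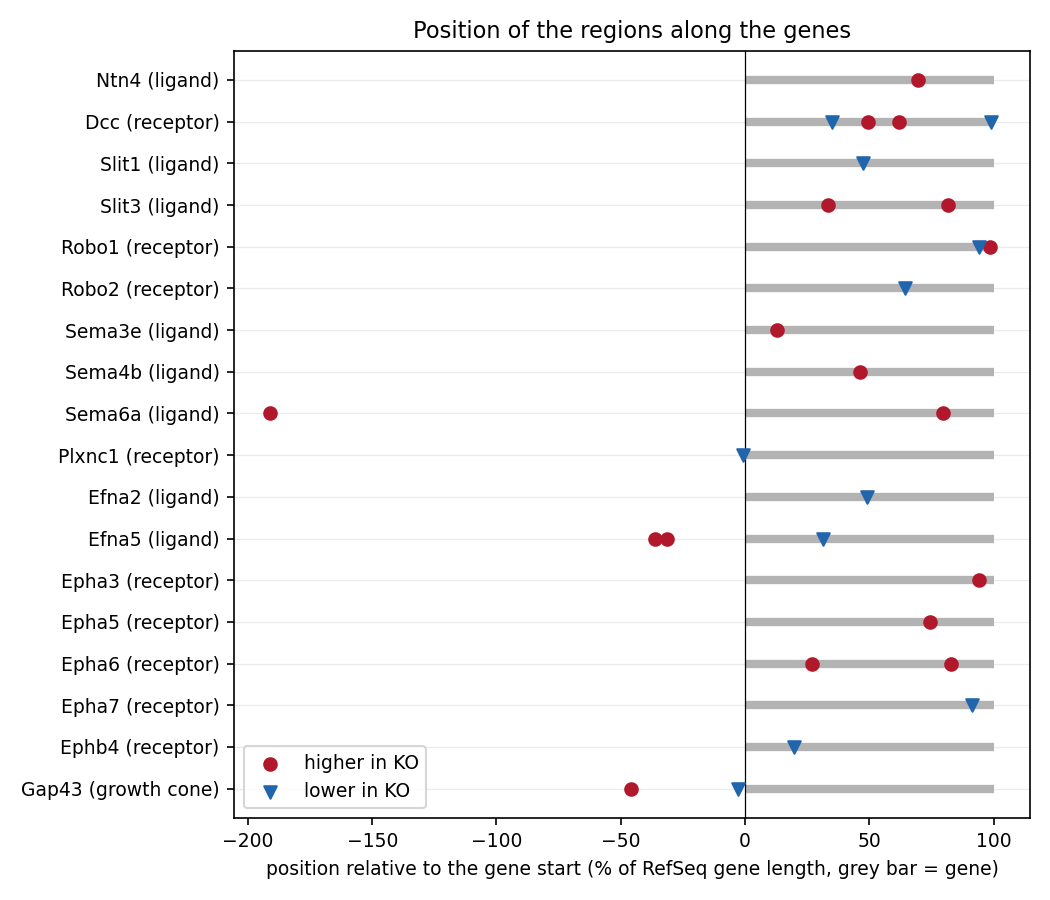
Position of each region relative to the gene start, in percent of the RefSeq gene length, for the 18 axon guidance genes with a known strand, with the gene as a grey bar, circles for regions higher in KO and triangles for regions lower in KO. Both Robo1 regions lie beyond 90 percent of the gene. Higher regions of Efna5, Gap43 and Sema6a and lower regions of Gap43 and Plxnc1 lie before the start.

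Scores lay near those of the whole lists, and median widths were somewhat larger. Higher regions had a median score of 2.40, with a 95% interval of 1.95 to 3.69, beside 2.52 for the whole list. In the lower list it was 3.26 (2.22 to 7.36), beside 2.66. At or above the median of the higher list were 9 of its 18 axon guidance regions (50.0%), beside 56.4% of the whole list. In the lower list these were 9 of 12 (75.0%, 42.8 to 94.5), beside 51.3%. The median width in the higher list was 479 bp (384 to 581), beside 404 bp, which lies inside that interval. In the lower list it was 410 bp (385 to 534), beside 357 bp, which lies below that interval. The lower list held 12 axon guidance regions, and the difference was not tested.

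Other genes of axon guidance were counted in the same way, by nearest start or holding gene. This count was not made over all genes, so the numbers of genes with regions cannot be called many or few. Of 56 genes for proteins that act inside the growth cone, 13 had regions, with 7 higher and 11 lower regions. Higher regions were at 7 of these genes and lower regions at 9, with 3 genes in both lists. The genes named next were chosen by score over both lists, and do not stand for this split. The higher list thus held 38.9% (17.3 to 64.3), below the 64.2% of all regions, and the interval just includes that value. Mical2, an enzyme that oxidises actin, had a lower region 455 bp before its start with a score of 6.85. Dpysl5, a collapsin response mediator, had a lower region of score 3.91. Dock1, a Rac activator, had 2 lower regions, the better of score 3.45. Ablim1, an actin-binding protein, had 2 lower regions, up to 3.36, and 1 higher region. This list shares Dcx, which had a higher region, with the neuron markers above.

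Of 35 other guidance cues and receptors, 6 had regions, with 8 higher regions (72.7%, 39.0 to 94.0) and 3 lower ones. The neurotrophin receptor gene Ntrk2 had a higher region of score 4.86, and the cadherin gene Celsr1 a lower region of score 4.76 in an exon. Lrrc4c, which encodes a ligand of netrin-G, had 3 higher regions, up to 4.54, and 2 lower regions. The chemokine receptor gene Cxcr4, which is expressed in microglia as well as in migrating neurons, had 2 higher regions. One lay in the promoter class, 2218 bp before its start (score 3.57), and the other 30287 bp before it (score 4.40). Of 15 axonal adhesion genes, 5 had regions, 2 higher (33.3%, 4.33 to 77.7) and 4 lower. Both intervals include the 64.2% of all regions. Cntn6 (3.31), Chl1 (3.21) and Ncam2 (2.08) had lower regions, and Cntn5 had a region in each list.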

How the data were processed

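CUT&Tag libraries of H3K9me3 and IgG (4 groups of 1 library) went through 14 PCR cycles, per the labels' protocols. Tools named in the submitters' processing notes are Bowtie2 2, CASAVA 1.4 and FastQC, with the build mm9. How peaks were called, how regions were chosen for a list and how the IgG libraries were used is not stated in these sources. The authors deposited a list of 3488 higher and one of 1944 lower regions with a peak score, a width, an annotation class and the nearest start, per the file headers. The deposited score was used as it stands.

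Regions were assigned as the report states, by the holding gene where it was a member and otherwise by the nearest start. The transcript given overlapped the GRCm38.p6 gene of its symbol in all 20 rows whose symbol RefSeq holds. Strands came from the RefSeq promoter table or the authors' rows. Unc50 and Unc5cl match by letters alone and had no region. The members and gene lists were chosen with earlier results of these data known. All member genes with regions are named. In each list of other axon guidance genes, up to 4 with the highest scores are named. These scores were ranked over the higher and lower lists together, which may not share a scale. Genes left out of the text above by this ranking include Rasa1, Nck2 and Cntn4, which had higher regions alone. A marker gene that the lists select is not reported here. Tools were matplotlib 3.10.9, pandas 2.3.3, scipy 1.17.1 and numpy 2.4.6 in Python 3.11.15. The assignment and intervals were tested on simulated data. The 10 alternatives listed at the start and 1 added after seeing the data covered the gene a region belongs to, merging, score minimums, chromosomes and single genes.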

Additional observations from a re-analysis of the deposited data

How the results depend on the processing

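The share of axon guidance regions in the higher list ranged from 43.8% to 61.5% over the main value and 11 alternatives, inside the interval of the main value, 60.0%. Of 164 alternative values, 149 stayed within 1.5 times (counts) or within the 95% interval (shares and medians) of the main value. This count is not a measure of robustness. Merging regions within 10 kb, keeping autosomes alone and dropping symbols that match by letters alone removed no region and changed no value. Both score minimums kept the same regions. Family intervals are wide, such as 11.8 to 88.2 for the slit family, so most shares stay inside them. By nearest start alone the higher list held 7 regions instead of 18, the intron share was 50.0%, and the share higher in the slit family was 0% (0 of 2 regions). Without Plxna4os3, an alternative chosen after seeing the data, these were 7 regions, 46.7% and 0%. With only regions inside member genes, the intron share was 95.7%, and promoter and distal intergenic shares were 0% by construction. With the promoter class added, the intron share was 88.0% and the distal intergenic share 0%, also by construction. The higher list held 9 regions with a score at least 1 above the smallest and 9 at or above the median score. Without Dcc, the gene with most regions, the netrin family had 100% of its regions in the higher list (2 of 2). The promoter pair, the semaphorin and plexin split and each gene in both lists rest on 2 to 6 regions. No paired analysis was possible because each group has 1 library, and for the same reason no library could be left out. Depth is unknown, so unequal depth of the 2 H3K9me3 libraries cannot be told apart from genotype.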

Other observations

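The authors' scores took few distinct values. The 3488 regions of the higher list had 190 score values and the 1944 of the lower list 165, with 17 values in both lists. The most frequent value in the higher list, 1.95, was shared by 534 regions, among them 4 of axon guidance genes, at Dcc, Epha6, Efna5 and Sema4b. In the lower list 295 regions shared the value 2.22, among them the intron 27 region of Dcc. The scores of the Robo1 and Epha7 regions in the lower list were each held by 1 region. Ranks among low scores are therefore largely ties.

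The region names are numbered in genome order up to 6359 over both lists, and 927 numbers are in neither. The 4 Dcc regions had consecutive numbers, as did the pairs at Robo1 and Gap43, so that no numbered region lay between neighbours of opposite direction there. At Efna5, 1 number fell between the lower region and the nearer higher one. The nearest listed region was in the same list for 16 of 30 axon guidance regions (53.3%, 34.3 to 71.7), beside 54.2% over all regions.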
